A study of Homo sapiens with 7 samples.

Results

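The miR-374 family and its neighbour miR-421 are made from 3 hairpins that lie inside FTX, a long noncoding RNA gene of the X-inactivation centre on chromosome X. The 5 mature miRNAs described here, of 2652 listed in each count file, were chosen by name: hsa-miR-374a-5p, hsa-miR-374a-3p, hsa-miR-374b-5p, hsa-miR-374b-3p and hsa-miR-421. They were picked from these data because miR-374a-3p stood lower at 48 h of siRNA treatment, so its 48 h values, and those of the other 4 at 48 h, are given as a description without a test.

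A miRNA hairpin is cut by Dicer into a pair of arms, named 5p and 3p, and an Argonaute protein keeps one of them as a guide. The guide pairs with messenger RNAs mainly through its seed, bases 2 to 8 from the 5′ end, and lowers the output of those messages. miR-374a has been studied in tumours as a regulator of Wnt signalling, and miR-421 is known to target ATM, a kinase of the DNA damage response. In the mouse, Ftx has been linked to the control of X inactivation.

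The mature sequences of the 5 miRNAs, as the count files give them, are shown 5′ to 3′ with the seed in capitals. Matching arms of the family differ in few bases.

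miR-374a-5p: uUAUAAUAcaaccugauaagug
miR-374b-5p: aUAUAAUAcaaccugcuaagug
miR-374a-3p: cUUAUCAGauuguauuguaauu
miR-374b-3p: cUUAGCAGguuguauuaucauu
miR-421: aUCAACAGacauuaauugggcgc

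The 5p arms of miR-374a and miR-374b share the seed UAUAAUA and no other miRNA of the files has it. Counted from the 5′ end, with the miR-374a base first, the 5p arms differ by U1A and A16C. The 3p arms differ by U5G, A9G, G17A and A19C, of which U5G falls in the seed. The seeds of miR-374a-3p, miR-374b-3p and miR-421 each belong to that miRNA alone in the files. GC content is 22.7% in miR-374a-3p, 27.3% in miR-374a-5p, 31.8% in both arms of miR-374b and 43.5% in miR-421.

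RefSeq (GRCh38.p14) matched 4 of the 5 names and the 3 hairpins, all on the minus strand. The hairpins of miR-374a and miR-374b are shown with both arms in capitals, to place the arms that are compared below.

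MIR374A: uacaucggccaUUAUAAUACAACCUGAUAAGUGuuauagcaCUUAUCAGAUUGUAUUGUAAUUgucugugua
MIR374B: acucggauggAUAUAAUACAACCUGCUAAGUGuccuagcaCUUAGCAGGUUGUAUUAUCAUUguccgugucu

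MIR374A lies at chrX:74287286-74287357, MIR374B at chrX:74218547-74218618 and MIR421 at chrX:74218377-74218461. Only 85 bases separate MIR421 from MIR374B, while 68667 bases separate MIR374B from MIR374A. In GENCODE 29 (GRCh38) FTX spans chrX:73946555-74293574 on the same strand. None of its 18 transcripts has an exon over the 3 hairpins, so they are intronic.

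The libraries hold small RNA of HepG2 cells, a widely used line grown from a human liver carcinoma. Of the 7 libraries, 6 came from cells given siRNA 2 or siRNA 1 against the transcription factor TEAD1 for 24, 36 or 48 h, with 1 library for each siRNA and time, and 1 came from untreated cells at 0 h. The study asked which miRNAs depend on TEAD1. TEAD1 is an mRNA that these libraries do not measure, and no library of cells with a control siRNA was analysed here, so effects of TEAD1 loss, of transfection and of hours in culture cannot be told apart.

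Reads assigned to miRNAs numbered 1920832 to 3739729 in the siRNA-treated libraries and 6171851 in the untreated one. That was 13.4% to 26.5% of all reads after siRNA and 43.1% untreated. The labels do not describe separate cultures, and p-values therefore reflect only how far these libraries spread, possibly for technical reasons. In the fits by time, that spread comes from siRNA 2 against siRNA 1 within each time. Different siRNAs there stand in for replicates. The 36 h libraries stood apart from each other. Taken over miRNAs, log2 siRNA 2 minus siRNA 1 had an SD of 0.57 in the 24 h pair, 1.22 in the 36 h pair and 0.50 in the 48 h pair. For miR-374a-3p, siRNA 2 at 36 h (72.2 CPM) lay near the 48 h libraries (102 and 149 CPM), and siRNA 1 at 36 h (1066 CPM) lay near the 24 h libraries (1220.1 and 1234 CPM). Summed fibroblast and endothelial markers were alike in both 36 h libraries, at 1065 to 1068 CPM, above all other libraries. The largest part of that sum was miR-143-3p, with 708 CPM (siRNA 2) and 746 CPM (siRNA 1). Of the same list, miR-126-3p had 337 and 300 CPM there, below both 48 h libraries (437 and 373.6 CPM). Summed muscle markers differed within the 36 h pair, with 52.8 CPM for siRNA 2 and 876 CPM for siRNA 1. Nearly all of each sum was miR-1-3p, with 52.4 CPM for siRNA 2 and 867 CPM for siRNA 1. Whether the time labels of the 36 h libraries are right was not tested, and every 36 h value below rests on those labels. Of the hepatocyte markers, miR-885-5p had no read in any library and miR-122-5p ran from 3.76 to 47.6 CPM with siRNA and stood at 45.5 CPM untreated. The summed level of the 5 hepatocyte markers was 16112 to 27484 CPM with siRNA and 21025 CPM untreated. Most of that sum was miR-148a-3p, with 13928 to 25536 CPM with siRNA and 18426 CPM untreated, so it says little about the other markers.

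Levels are in counts per 1000000 miRNA reads (CPM), scaled with TMM factors. A level is a share of the miRNA reads, and fewer cells with a miRNA cannot be told apart from less of it per cell. All 5 miRNAs passed the filter of a mean count of 10.

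miR-374a-3p was the most abundant of the 5 in untreated cells and the most variable. It stood at 1002 CPM untreated (95% interval 975 to 1029, 5373 reads). After 24 h the level was 1220.1 CPM with siRNA 2 and 1234 CPM with siRNA 1, and after 36 h it was 72.2 CPM with siRNA 2 and 1066 CPM with siRNA 1. At 48 h it stood at 102 CPM with siRNA 2 (interval 89.5 to 115, 244 reads) and 149 CPM with siRNA 1 (interval 134 to 166, 341 reads). Both 48 h libraries and siRNA 2 at 36 h lay far below the other 4 libraries. The 36 h pair held the lowest of the 7 values, with siRNA 2, and one close to untreated, with siRNA 1. The highest of the 7 values was 17.1 times the lowest.

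At 48 h against untreated cells the log2 fold change of miR-374a-3p was -2.998 ± 1.15 (SE), and at 48 h against 24 h it was -3.29 ± 1.06. Among 458 miRNAs these differences held places 8 and 5 from the lowest. As the values that chose the set, they support nothing by themselves. Without both 36 h libraries these differences were -2.95 ± 0.27 and -3.31 ± 0.25. The siRNAs differed in miR-374a-3p by -0.02 on the log2 scale in the 24 h pair (siRNA 2 minus siRNA 1), by -3.88 in the 36 h pair and by -0.55 in the 48 h pair.

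miR-374a-5p, the other arm of the same hairpin, was low in the same libraries, over a narrower range. It stood at 397 CPM untreated. With siRNA 2 and siRNA 1 it was at 356 and 457 CPM after 24 h, 99.5 and 498 CPM after 36 h, and 151 and 144 CPM after 48 h. The 48 h pair lay close together, below untreated and below both 24 h libraries. The log2 fold change at 48 h was -1.43 ± 0.77 (SE) against untreated and -1.46 ± 0.67 against 24 h.

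miR-374b-5p, which has the seed of miR-374a-5p, stood apart from it at 48 h. It was at 428 CPM untreated, and with siRNA 2 and siRNA 1 at 453 and 582 CPM after 24 h, 271 and 589.8 CPM after 36 h, and 405 and 402 CPM after 48 h. Its 48 h values lay within the range of the other libraries. The log2 fold change at 48 h was -0.09 ± 0.48 (SE) against untreated. It was above 0 with total miRNA counts as the scale (0.27) or with a GC trend removed (0.48), and -1.20 with all reads as the scale.

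miR-374b-3p, the scarce arm of that hairpin, was low in the libraries where the arms of miR-374a were low. It stood at 61.9 CPM untreated (332 reads). With siRNA 2 and siRNA 1 it was at 53.1 and 84.3 CPM after 24 h, 19.0 and 69.4 CPM after 36 h, and 17.5 and 24.0 CPM after 48 h. The 3 low libraries held 42 to 55 reads each. The log2 fold change at 48 h was -1.57 ± 0.71 (SE) against untreated and -1.73 ± 0.62 against 24 h.

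miR-421, 85 bases from MIR374B, varied least, with a highest value 1.84 times the lowest. It stood at 117 CPM untreated. With siRNA 2 and siRNA 1 it was at 176 and 124 CPM after 24 h, 97.4 and 179.7 CPM after 36 h, and 124 and 122 CPM after 48 h. The 48 h values were close to untreated, with a log2 fold change of 0.08 ± 0.46 (SE), which was -1.04 with all reads as the scale and slightly below 0 (-0.01) without a count filter.

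**Figure D1:**
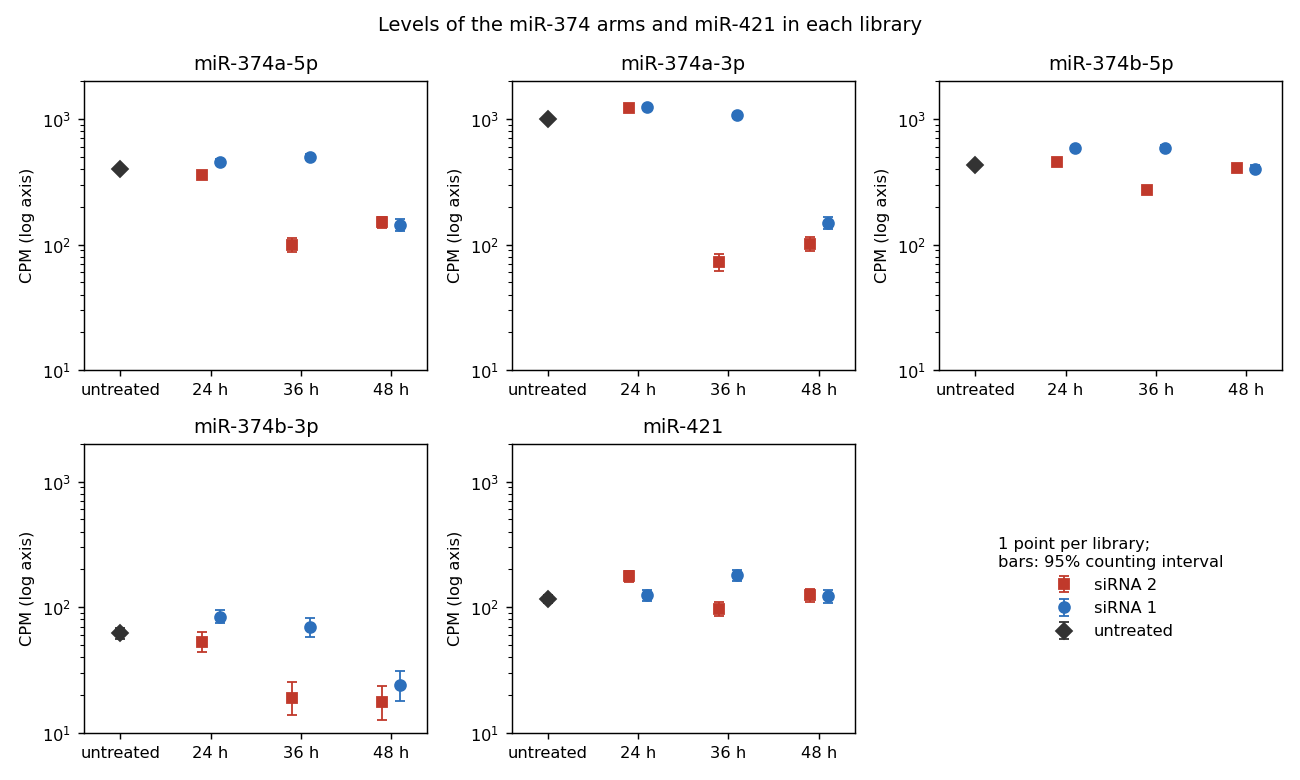
CPM on a log axis in each library, untreated and then by hours of siRNA treatment, 1 panel per miRNA, with siRNA 2 as squares, siRNA 1 as circles, untreated as diamonds and bars for the 95% counting interval. miR-374a-3p lies between 72.2 and 149 CPM in both 48 h libraries and siRNA 2 at 36 h and between 1002 and 1234 CPM in the other 4, while miR-421 stays between 97.4 and 179.7 CPM.

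Ratios of 2 miRNAs within a library do not depend on how libraries are scaled, and they show how unequal the changes were. Reads of miR-374a-3p per read of miR-374a-5p numbered 2.52 untreated (95% interval 2.40 to 2.65). With siRNA 2 and siRNA 1 the ratio was 3.43 and 2.70 after 24 h, 0.73 and 2.14 after 36 h and 0.68 and 1.04 after 48 h. At 48 h the intervals were 0.57 to 0.80 with siRNA 2 and 0.89 to 1.21 with siRNA 1. Since low miR-374a-3p at 48 h picked the set, this ratio at 48 h follows in part from the choice and is a description. The 3p arm thus held 40.3% and 50.9% of the reads of the hairpin at 48 h, against 71.6% untreated.

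The ratio of miR-374b-3p to miR-374b-5p differed in the same direction, at a lower level. It was 0.145 untreated (95% interval 0.128 to 0.162). With siRNA 2 and siRNA 1 it was 0.117 and 0.145 after 24 h, 0.0700 and 0.118 after 36 h and 0.0433 and 0.0598 after 48 h. The arms of this hairpin have the same GC content. The intervals at 48 h were 0.0310 to 0.0590 with siRNA 2 and 0.0447 to 0.0785 with siRNA 1. As 48 h values of the set these are a description too.

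The 5p arms of the family, which differ by 2 bases, also parted. miR-374a-5p numbered 0.93 reads per read of miR-374b-5p in untreated cells. With siRNA 2 and siRNA 1 this ratio was 0.79 and 0.78 after 24 h, 0.37 and 0.84 after 36 h and 0.37 and 0.36 after 48 h. In 3 libraries it lay from 0.36 to 0.37 and in the other 4 from 0.78 to 0.93. The neighbours miR-374b-5p and miR-421 kept a ratio of 2.58 to 4.68 in all 7 libraries, with 3.26 and 3.30 at 48 h and 3.68 untreated.

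**Figure D2:**
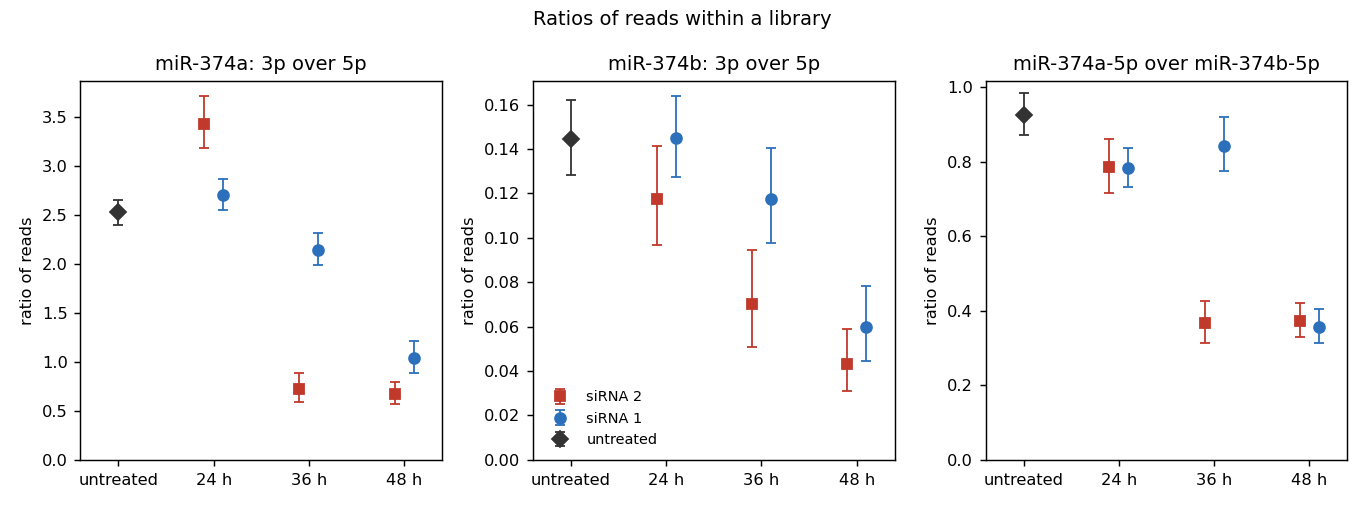
Ratio of reads within each library, untreated and by hours of siRNA treatment, with siRNA 2 as squares, siRNA 1 as circles, untreated as diamonds and 95% Clopper-Pearson bars. The 3p over 5p ratio of miR-374a is 0.68 and 1.04 at 48 h and 2.52 untreated, and miR-374a-5p over miR-374b-5p is 0.37 and 0.36 at 48 h and 0.93 untreated.

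Over 110 hairpin names with both arms tested, with 0.5 reads added to each arm, the log2 ratio of 3p to 5p shifted by -1.86 for miR-374a and -1.35 for miR-374b between 48 h and 24 h. The median of the 110 shifts was 0.11 and they ran from -5.002 to 3.88, and miR-374a and miR-374b held places 5 and 8 from the most negative. The shifts with siRNA 2 and siRNA 1 were -2.34 and -1.38 for miR-374a and -1.43 and -1.27 for miR-374b. The shift of miR-374a contains the 48 h level of miR-374a-3p that picked the set, so its place supports nothing by itself.

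The makeup of the reads of the 5 miRNAs differed accordingly. miR-374a-3p held 12.7% and 17.7% of them at 48 h with siRNA 2 and siRNA 1, against 49.95% untreated (95% interval 49.0 to 50.9). miR-374b-5p held 50.7% and 47.8% at 48 h, against 21.4% untreated, and miR-421 held 15.6% and 14.5%, against 5.81%. miR-374a-5p held 18.9% and 17.1%, against 19.8%. The summed level of the 5 was 799 and 841 CPM at 48 h, against 2006 CPM untreated.

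**Figure D3:**
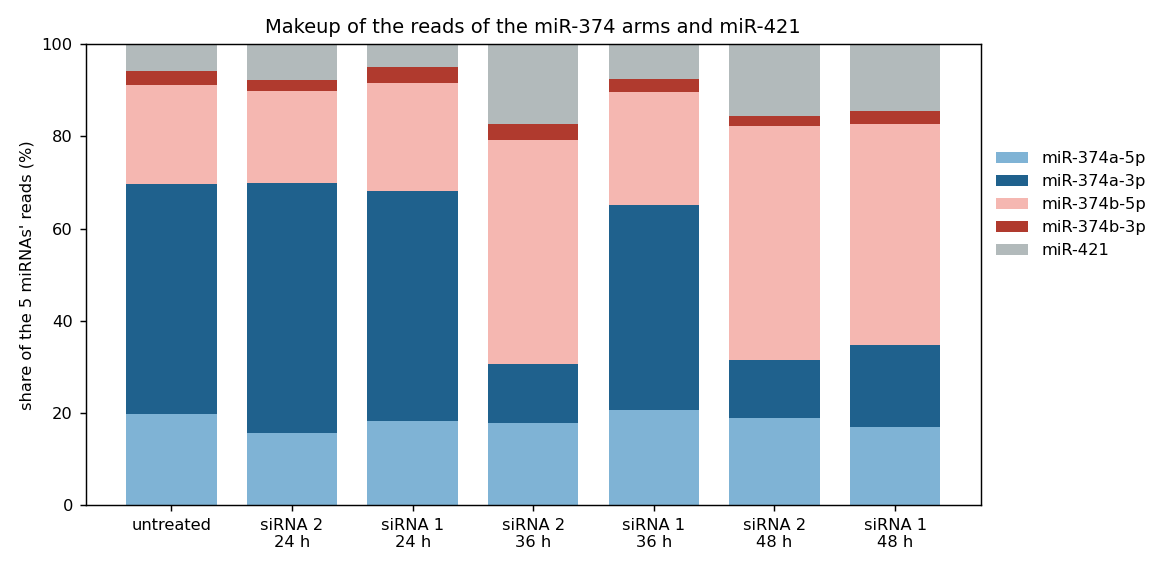
Stacked share, in percent, of the reads of the 5 miRNAs in each library, untreated first and then by hours of siRNA treatment. The miR-374a-3p part is 12.7% and 17.7% at 48 h and 12.9% with siRNA 2 at 36 h, against 44.4% to 54.05% in the other 4 libraries.

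Both earlier times against untreated, and siRNA 2 against siRNA 1, were tested with the quasi-likelihood F-test of edgeR, adjusted by Benjamini-Hochberg over all miRNAs tested. At 24 h against untreated, none of the 5 passed an adjusted p of 0.05, beside 0% of the 458 tested miRNAs. The contrast shares the untreated library with the one that picked the set. Log2 fold changes were 0.29 ± 1.20 (SE) for miR-374a-3p, 0.03 ± 0.80 for miR-374a-5p, 0.27 ± 0.49 for miR-374b-5p, 0.15 ± 0.73 for miR-374b-3p and 0.36 ± 0.47 for miR-421, each with an adjusted p of 0.997. All 5 were below 0 with all reads as the scale, where the median of all miRNAs was -0.97. At an unadjusted p under 0.05 there were 0 of the 5 and 11 of the 458, limma-voom called 0 and DESeq2 called 1 miRNA, not one of the 5. Without both 36 h libraries edgeR called 2.78% of 467 miRNAs and again none of the 5.

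At 36 h against untreated, none of the 5 passed, beside 0% of 458. This contrast also shares the untreated library with the one that picked the set, and its spread draws on the 48 h libraries. Log2 fold changes were -0.82 ± 1.15 (SE) for miR-374a-3p, -0.41 ± 0.79 for miR-374a-5p and -0.49 ± 0.72 for miR-374b-3p (adjusted p = 0.946 each). They were 0.01 ± 0.48 for miR-374b-5p (adjusted p = 0.997) and 0.25 ± 0.46 for miR-421 (0.946). At an unadjusted p under 0.05 there were 0 of the 5 and 19 of the 458, limma-voom called 0, and DESeq2 called 7 miRNAs, none of the 5.

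Which 36 h library was used decided this contrast. Without siRNA 1 at 36 h, 3 of the 5 passed, beside 19.8% of 459 miRNAs: miR-374a-3p at -3.76 ± 0.35 (SE, edgeR adjusted p = 7.33e-08), miR-374a-5p at -1.96 ± 0.34 (0.000186) and miR-374b-3p at -1.67 ± 0.44 (0.00887). Here siRNA 2 is the lone 36 h library and is assumed to vary like the others. The untreated library shared with the pick is in this fit too, so its values are not independent of that choice. Without siRNA 2 at 36 h, none of the 5 passed, beside 3.03% of 462, and miR-374a-3p stood at 0.08 ± 0.32 (adjusted p = 0.994).

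siRNA 2 was compared with siRNA 1 over the 3 times, with time in the fit, on 435 miRNAs. The 48 h libraries, whose low miR-374a-3p picked the set, are among the 6 in this fit, so it is not independent of that choice. None of the 5 passed, beside 0% of 435, with log2 fold changes of -1.32 ± 0.79 (SE) for miR-374a-3p, -0.96 ± 0.40 for miR-374b-3p, -0.81 ± 0.51 for miR-374a-5p, -0.46 ± 0.31 for miR-374b-5p and -0.08 ± 0.35 for miR-421 (adjusted p = 0.992 each). At an unadjusted p under 0.05 there were 6 of the 435, among them 1 of the 5, miR-374b-3p. DESeq2 and limma-voom called 0. Without both 36 h libraries miR-374a-3p stood at -0.17, miR-374a-5p at -0.05, miR-374b-5p at -0.08, miR-374b-3p at -0.48 and miR-421 at 0.37. The sizes for the arms of miR-374a and for miR-374b-5p and the sign for miR-421 thus rest on the 36 h pair. The size for miR-374b-3p does so only in part. Its log2 siRNA 2 minus siRNA 1 was -0.67 in the 24 h pair and -0.45 in the 48 h pair, against -1.87 in the 36 h pair.

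**Figure D4:**
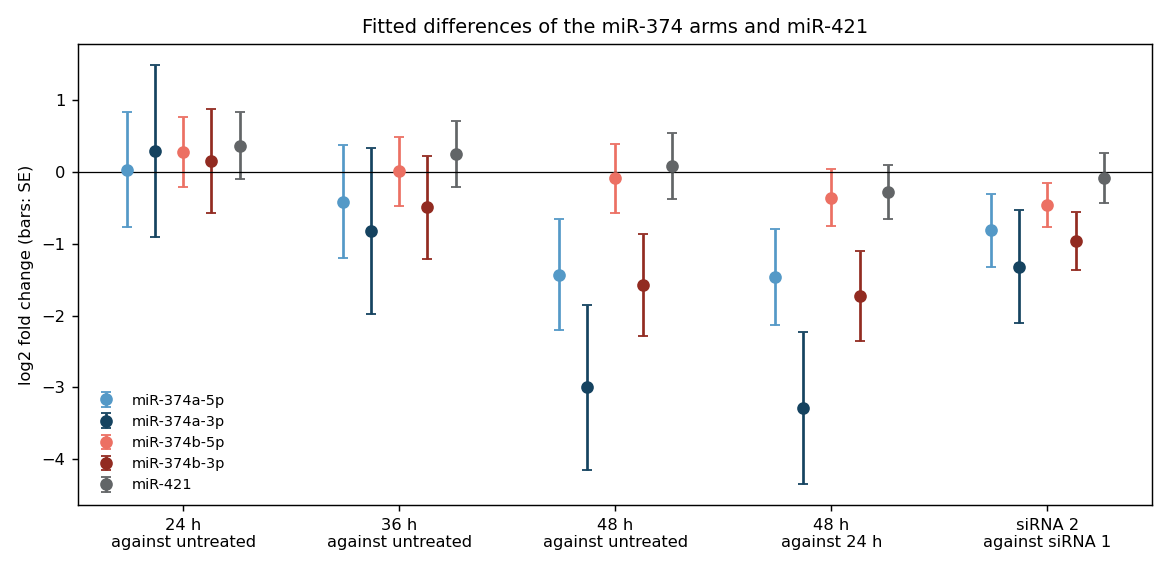
Log2 fold change with its SE for the 5 miRNAs in each comparison, from the edgeR fits. The 48 h values of miR-374a-3p, -2.998 and -3.29, are those that chose the set, and none of the 5 passed in the 3 comparisons that were tested.

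Other miRNAs of the locus were near the limit of detection. The hairpin of miR-545 lies beside MIR374A in FTX, and its arms had 7 reads (miR-545-3p) and 1 read (miR-545-5p) in the 7 libraries together. MIR374C overlaps MIR374B by 70 bases on the opposite strand. Its arms had 11 reads (miR-374c-5p) and 2 reads (miR-374c-3p) in all. A miRNA without a read could still stand at up to 3 reads, which is 0.887 to 1.52 CPM in the siRNA-treated libraries and 0.560 CPM in the untreated one. None of these 4 passed the count filter. miR-374c-3p is the reverse complement of miR-374b-5p. miR-374c-5p shares a run of 20 bases with miR-374b-5p, and miR-374c-3p shares one of 18 bases with miR-374b-3p. Reads of the miR-374b arms and of miR-374c could thus be split only as far as the counting separated them. How the counting was done is not given in the sources used here.

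Of 142 other miRNAs that RefSeq places on chromosome X alone, 40 were tested at 48 h against untreated, with a median log2 fold change of -0.53, and 26 were below 0. All tested miRNAs had a median of -0.02, with 237 of 458 below 0. At 24 h against untreated the X-linked list had a median of -0.06 and at 36 h of -0.31, with none called in either direction by edgeR. For the 5 miRNAs the medians were 0.27 for 24 h, -0.41 for 36 h and -1.43 for 48 h, the last fixed in part by the choice of the set.

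The miRNAs most like each of the 5 were found by Pearson correlation of log2 CPM over the 7 libraries, among 271 others with a mean count of at least 50. For miR-374a-3p they were miR-101-3p (r = 0.994), known to target EZH2, miR-19b-3p (r = 0.993) of the miR-17/92 cluster, and miR-148b-5p (r = 0.992). Their sequences are shown with the seed in capitals, since none of these seeds is that of miR-374a-3p.

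miR-101-3p: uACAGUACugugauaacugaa
miR-19b-3p: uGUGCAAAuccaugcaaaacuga
miR-148b-5p: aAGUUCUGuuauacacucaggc

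Matched by name in RefSeq, miR-101-3p had a locus on chromosome 9, miR-19b-3p on chromosomes 13 and X, and miR-148b-5p on chromosome 12. A match by name need not find every locus of a miRNA. Their log2 fold changes at 48 h against 24 h were -2.93, -2.41 and -0.89, against -3.29 for miR-374a-3p, so the patterns were alike in shape and not all in size. miR-374a-5p was most like miR-32-5p (r = 0.991), miR-148b-5p (0.991) and miR-3613-5p (0.989). miR-374b-3p was most like the X-linked miR-651-5p (0.985), miR-30a-5p (0.983) and miR-340-5p (0.982). miR-374b-5p was most like miR-15a-5p (0.957), miR-26b-5p (0.945) and miR-27b-3p (0.925), and miR-421 was most like miR-16-5p (0.924), miR-378a-3p (0.875) and let-7d-5p (0.862). Each r rests on the same 7 libraries, of which 3 were low and 4 high for miR-374a-3p, and is given as a description.

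Among the 5, r over the 7 libraries was 0.976 between the arms of miR-374a and 0.972 between the 3p arms of the family. It was 0.807 between the arms of miR-374b. miR-421 had the lowest values, 0.529 to 0.695 with the other 4, including 0.695 with its neighbour miR-374b-5p.

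GC content moved with the difference between 48 h and 24 h over all miRNAs. The 42 tested miRNAs with at most 35% GC had a median log2 fold change of -0.88, and 32 of them were below 0. The 212 with over 35% and up to 50% GC had a median of -0.09, and the 204 with over 50% GC had one of 0.25, with 128 above 0. Across the 458 miRNAs, which are not independent replicates, Pearson's r between GC content and the difference was 0.367. The 4 arms of miR-374a and miR-374b belong to the class of lowest GC.

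With a linear GC trend removed from each library, miR-374a-3p stood at -2.47 ± 0.74 (SE) at 48 h against 24 h and at -2.16 ± 0.83 against untreated. Against 24 h, miR-374a-5p then stood at -0.77 ± 0.45, miR-374b-3p at -1.16 ± 0.48, miR-374b-5p at 0.20 ± 0.30 and miR-421 at -0.07 ± 0.36. The order of the 5 differences stayed the same except that miR-374b-5p, then above 0, passed miR-421.

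**Figure D5:**
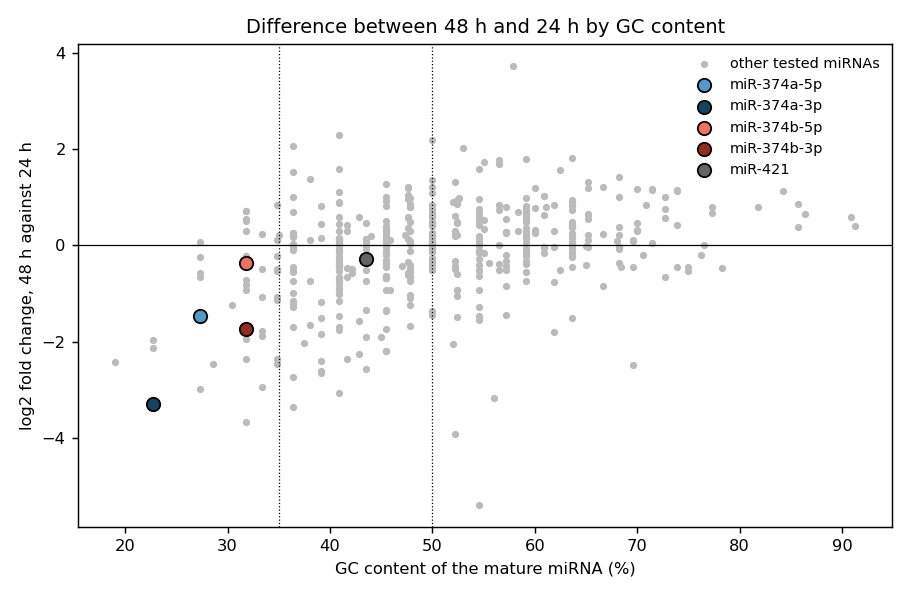
Log2 fold change at 48 h against 24 h by GC content of the mature miRNA, in percent, for 458 miRNAs, with the 5 marked and dotted lines at 35% and 50%. The arms of miR-374a and miR-374b lie at 22.7% to 31.8% GC with values of -3.29 to -0.36, and miR-421 lies at 43.5% with -0.28, which was 0.07 with total miRNA counts as the scale.

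Markers of other cells differed between libraries to unequal degrees. The summed level of 5 fibroblast and endothelial miRNAs, of which 4 were tested and miR-145-5p had no read with siRNA 2 at 24 h, was 442 to 505 CPM at 24 h, 1065 to 1068 CPM at 36 h, 837 to 839.8 CPM at 48 h and 458 CPM untreated. The 3 muscle miRNAs summed to 876 CPM with siRNA 1 at 36 h, of which miR-1-3p made up 867 CPM. There miR-133a-3p had 2.53 CPM and miR-206 had 6.58 CPM. The sum was 20.99 to 52.8 CPM in the remaining 5 libraries given siRNA, against 23.1 CPM untreated. miR-206 had no read in the untreated, both 24 h and the siRNA 1 48 h libraries. The 4 blood miRNAs summed to 13.4 to 75.5 CPM with siRNA and 13.8 CPM untreated, with no read of miR-223-3p in any library. The 3 neuronal ones summed to 40.0 to 51.5 CPM with siRNA and 34.3 CPM untreated, with no read of miR-124-3p. Reads given to no feature made up 73.5% to 86.6% of the siRNA-treated libraries and 56.9% of the untreated one. The part of these in the levels of the 5 miRNAs was not tested.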

How the data were processed

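As deposited, each of the 7 HepG2 libraries has 1 table of unnormalized read counts, 1 line per mature miRNA. Its summary lines (56.9% to 86.6% of reads without a feature) entered neither library sizes nor tests. For aligner, counter and genome build: not given in the sources used here. Per the labels' protocols, 2 ug of total RNA went into the NEBNext small RNA kit. Adapter ligation takes up some sequences better than others, so a level is best compared for one miRNA between libraries.

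The members and lists were chosen with earlier results of these data known. Tests used edgeR 4.0.16 (quasi-likelihood F-test, TMM, mean count of at least 10, R 4.3.3) with untreated and the 3 times in 1 fit. With 1 untreated library, its spread was taken from the other groups. SEs are those whose squared ratio to the log2 fold change equals F. Log2 CPM used a prior count of 2. Intervals are 95% Clopper-Pearson, and intervals and limits cover counting error only. Alternatives included DESeq2 1.42.0, limma-voom (limma 3.58.1), other scales and filters, each siRNA-treated library left out, a GC correction and a replicate block. Named miRNAs are the 5, the others of FTX, and the 3 most correlated with each. Scripts were tested on simulated data.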

Additional observations from a re-analysis of the deposited data

Results flagged for a closer look

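At 36 h the siRNAs lay on opposite sides of untreated cells for both 5p arms, beyond the counting intervals, with 1 library each. For miR-374a-5p the log2 difference from untreated was -1.997 with siRNA 2 and 0.33 with siRNA 1. For miR-374b-5p it was -0.66 with siRNA 2 and 0.46 with siRNA 1. Over miRNAs, log2 siRNA 2 minus siRNA 1 had an SD of 1.22 in this pair. That difference was -1.12 for miR-374b-5p, within the SD, and -2.32 for miR-374a-5p, beyond it. The difference between the siRNAs at this time was not tested on its own.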

How the results depend on the processing

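No alternative called any of the 5 miRNAs at 24 h against untreated or for siRNA 2 against siRNA 1. At 36 h, 1 was called with all reads as the scale (miR-374a-3p, -2.23, edgeR adjusted p = 0.0497, beside 10.7% of all miRNAs), and 0 to 3 with a library left out. For miR-374a-3p at 48 h against untreated, the log2 fold change was -4.13 with all reads, -2.16 with the GC trend removed and -2.30 with the siRNA number as a replicate block. At 48 h against 24 h it was -2.47 with the GC trend removed. Of the 15 most similar miRNAs, 4 were shared when ranked by Spearman correlation.

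Signs reversed as follows, for tested values that did not pass. At 24 h with all reads: miR-374a-5p -0.86, miR-374a-3p -0.64, miR-374b-5p -0.62, miR-374b-3p -0.71 and miR-421 -0.62, and miR-374a-5p -0.027 without a filter. At 36 h miR-374b-5p stood at -1.29 with all reads, -0.11 by limma-voom, -0.10 without a filter and -0.031 at a mean count of 50, and miR-421 at -1.03 with all reads. For siRNA 2 against siRNA 1, miR-421 stood at 0.0093 with the GC trend removed and 0.37 without both 36 h libraries. With 1 library left out, ranges at 24 h were -0.16 to 0.19 for miR-374a-5p and -0.22 to 0.43 for miR-374b-3p. At 36 h they were -3.76 to 0.085 for miR-374a-3p, -1.96 to 0.32 for miR-374a-5p, -1.67 to 0.16 for miR-374b-3p, -0.63 to 0.46 for miR-374b-5p and -0.22 to 0.62 for miR-421. For siRNA 2 against siRNA 1 they were -0.40 to 0.34 for miR-421. Among the untested 48 h values, miR-421 against 24 h stood at 0.066 with total miRNA counts and at 0.038 without siRNA 2 at 24 h. The causes were not tested.

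The replicate block changed no call, and put miR-374b-5p at 48 h against untreated at 0.18. The siRNA number names a reagent, and whether it also marks a batch was not tested. The siRNA 2 minus siRNA 1 differences correlated over miRNAs at 0.0965 between 24 h and 36 h. The correlation was -0.251 between 24 h and 48 h and -0.158 between 36 h and 48 h. Such values cannot tell a reagent from a batch. The untreated library, which has no second copy, could not be left out.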

Other observations

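Per 1000000 of all reads, unassigned ones included, all 5 miRNAs were below untreated in all 6 siRNA-treated libraries. Most tested miRNAs were also lower on this scale. Against untreated, the median log2 fold change of the 458 tested was -1.14 for 48 h, after -0.97 (24 h) and -1.25 (36 h). The 48 h values of miR-374b-5p (-1.20) and miR-421 (-1.04) lay near that median. Those of miR-374a-5p (-2.55), miR-374b-3p (-2.70) and miR-374a-3p (-4.13) lay below it. At 48 h miR-374a-3p stood at 18.5 and 24.5 per 1000000 of all reads with siRNA 2 and siRNA 1, against 376 untreated. miR-421 stood at 22.5 and 20.0, against 43.7, and miR-374b-5p at 73.4 and 66.0, against 161. miR-421 and miR-374a-3p, far apart in untreated cells, were at similar levels by 48 h, on this scale as in CPM.

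Between the 3p arms of the family, miR-374a-3p numbered 5.81 and 6.20 reads per read of miR-374b-3p at 48 h with siRNA 2 and siRNA 1, 3.80 with siRNA 2 at 36 h, and 14.6 to 23.0 in the other siRNA-treated libraries, against 16.2 untreated.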
